A study of Homo sapiens with 28 samples.

Results

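The genes described here encode 38 subunits and activators of the proteasome in HepG2 cells, a human liver tumour cell line. They were listed by gene name, with earlier results of these data known, were matched by gene identifier and symbol with no threshold on a measured value, and are 38 of the 63139 gene rows kept from the count table. All 38 passed the filter on low counts, which left 18849 genes for testing. Poly(A)-selected RNA was sequenced from 28 libraries, 4 from each of 7 groups. After 24 h without serum, cultures received, for another 24 h, bisphenol A (BPA, 75 µM), TCDD (100 nM), tributyltin chloride (TBTCl, 0.1 µM) or PFOS (10 µM), each against the solvent DMSO, or cadmium chloride (CdCl2, 0.5 µM) against water. All 7 groups thus share the serum-free period, and every library is from the same cell line. Per the labels, the 4 libraries of a group come from independent experiments, each run in technical triplicate. According to the series record, TCDD and PFOS samples were renamed after deposit, and the corrected names are used here.

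BPA is a plastics monomer, TCDD a dioxin that activates the aryl hydrocarbon receptor, TBTCl an organotin and PFOS a fluorinated surfactant. Library totals ran from 28906900 to 66042414 counts. Levels are given as CPM, counts per 1000000 counts of a library total scaled by TMM (trimmed mean of M values), and 3 counts correspond to 0.0454 to 0.104 CPM depending on the library. The hepatocyte markers ALB, APOB, AFP and 6 others were present in every library, with a summed level of 29600 to 75406 CPM. The sum was 29600 to 45452 CPM in BPA libraries, against 41665 to 74119 CPM in DMSO libraries. Of the 9, AFP, TF and FGB fell in BPA and APOA2 rose, beside 17.6% of all genes called lower and 17.3% higher. The median log2 fold change of the 9 was -0.49. PTPRC, the pan-leukocyte gene, reached at most 0.0236 CPM and CD3E at most 0.0222 CPM. The summed leukocyte list (676 to 3364 CPM) was almost wholly LYZ, whose median was 1960 CPM. It summed to 676 to 1502 CPM in BPA, against 1876 to 2469 CPM in DMSO. CD14, a monocyte gene of that list, had 5.17 to 17.0 CPM in BPA and 3.83 to 5.81 CPM in TBTCl, against 1.24 to 1.61 CPM in DMSO. It rose in both (log2 fold changes 2.92 and 1.76; edgeR adjusted p = 2.63e-08 and 0.00332). The part of these marker shifts in the results below was not tested. The endothelial list summed to 3.55 to 8.47 CPM and the stromal list to 3.44 to 25.7 CPM. In bulk RNA, fewer cells of a type and less RNA per cell cannot be told apart.

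The proteasome degrades proteins tagged with ubiquitin. Its 20S core is a stack of alpha rings (PSMA genes), which gate the entry, and beta rings (PSMB genes), of which PSMB5, PSMB6 and PSMB7 carry the proteolytic sites. The 19S cap holds the PSMC ATPases, which unfold the substrate, and the PSMD subunits, which bind and remove ubiquitin. In cells exposed to interferon, PSMB8, PSMB9 and PSMB10 replace the constitutive catalytic subunits to form the immunoproteasome, and PSME1 and PSME2 form the PA28 activator. When proteasome activity is blocked, the transcription factor NFE2L1 is known to raise most subunit genes together. In liver, the ubiquitin-proteasome system clears misfolded and oxidised proteins.

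Most proteasome mRNAs differed little between exposed cells and their vehicle, with the largest median change in TBTCl. In BPA, 2 of the 38 genes rose (PSMD14 and PSMD8, both of the 19S lid) and 3 fell (PSMB9 of the immunoproteasome, PSME2 of PA28 and PSMA6 of the alpha ring), at an adjusted p under 0.05 in edgeR's quasi-likelihood test. Over all genes tested, 17.3% were called higher and 17.6% lower in BPA, 35.0% in all. In TCDD, PSMC2 and PSMB10 rose and none fell, against 6.45% of all genes called higher and 2.80% lower. None of the 38 was called in TBTCl, PFOS or CdCl2, where 0.143%, 0.0159% and 0.0212% of all genes were called in either direction, nor in DMSO against water, where 0% were called.

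**Figure D1:**
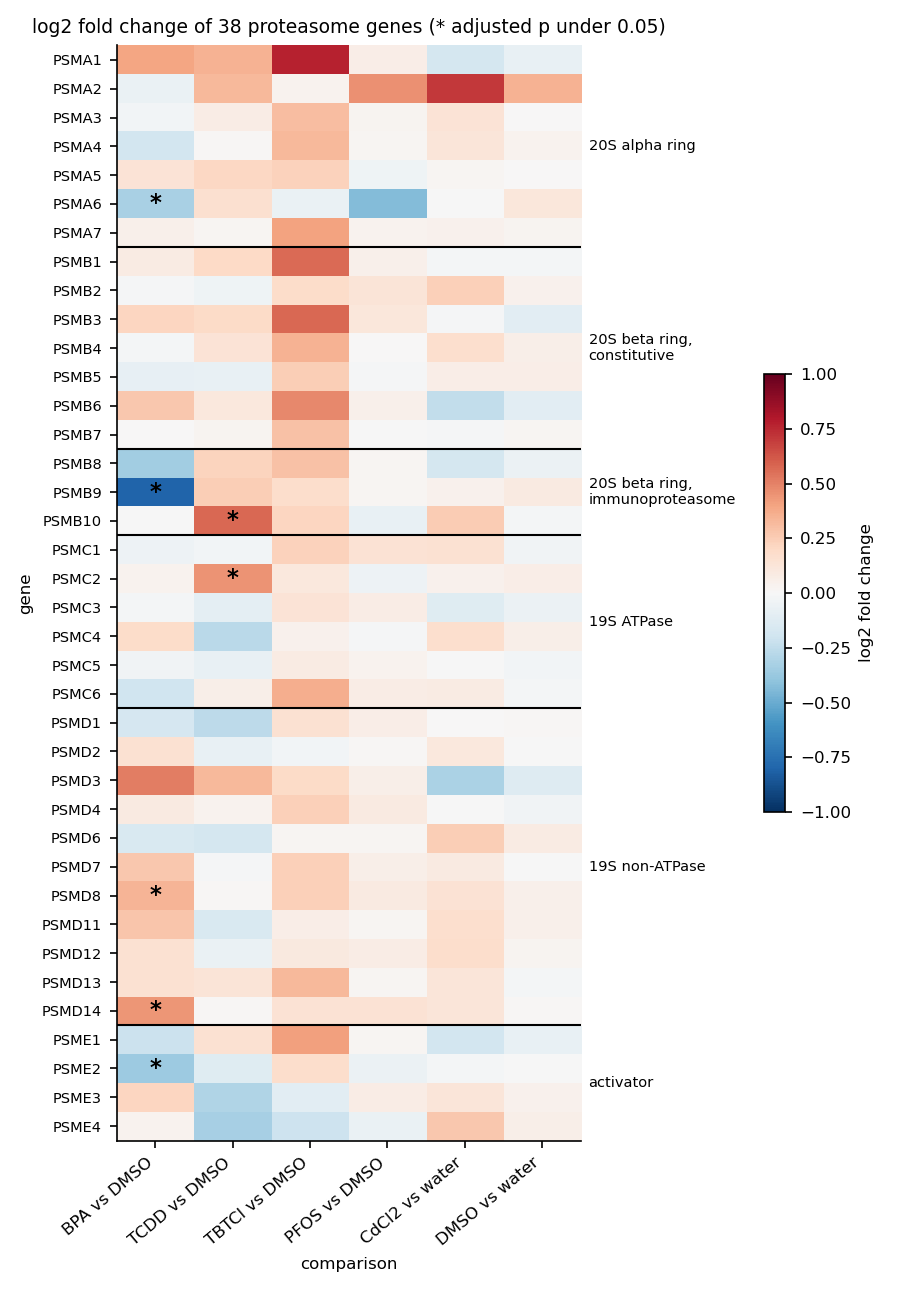
Log2 fold change (colour) of the 38 genes (rows, grouped by role) in 6 comparisons (columns), with a star where the adjusted p was under 0.05. Stars stand on 5 genes in BPA and 2 in TCDD, and PSMB9 in BPA holds the deepest blue (-0.80).

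The median log2 fold change of the 38 genes was 0.02 in BPA against DMSO, beside -0.02 over all genes. In TCDD it was 0.02 (all genes -0.01), in PFOS 0.03 (all genes 0.02) and in CdCl2 against water 0.08 (all genes 0.00 after rounding). With upper-quartile or library-size scaling in place of TMM, the BPA median over all genes moved to -0.15 and -0.14, and that of the 38 genes to -0.11 and -0.10. The split of calls in BPA was then 1 higher and 4 lower with upper-quartile scaling and 1 higher and 5 lower with library-size scaling. For the 38 genes, 34 of the 95% intervals of the BPA fold change lay inside a 2-fold change in either direction, against 55.5% of all genes. Inside a 1.5-fold change lay 28 of the 38, against 25.4% of all genes. In TCDD 28 and in TBTCl 22 of the 38 lay inside it, against 36.5% and 37.1% of all genes. The median absolute log2 fold change in TBTCl was 0.220 for the 38 genes and 0.218 over all genes. The median standard error on the log2 scale was smaller for the 38 genes, 0.14, than over all genes, 0.22. In PFOS and in CdCl2 against water these were also 0.14 and 0.22. The part of this precision in the shares of intervals was not tested. The common biological coefficient of variation of the fit was 22.0%.

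Levels were compared between genes per kilobase of the principal transcript. In DMSO libraries PSMA7 was highest at 375 ± 44 CPM per kb, followed by PSMB5 at 342 ± 28 and PSME1 at 258 ± 14 (SD, n = 4). PSMA7 and PSMB5 did not differ beyond their spread. Most other 20S and 19S genes lay between 217 CPM per kb (PSMB1) and 18.8 CPM per kb (PSMC1). The immunoproteasome subunits were lower: PSMB8 had 28.6 ± 0.9, PSMB9 6.72 ± 0.44 and PSMB10 2.60 ± 0.41 CPM per kb in DMSO (SD, n = 4). Each lay below the constitutive subunit it replaces, PSMB5, PSMB6 (148 ± 22) and PSMB7 (173 ± 14 CPM per kb).

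PSMA2 stood lowest at 0.174 ± 0.051 CPM per kb, from 3 to 28 counts a library. In the GENCODE 29 annotation 52.5% of the PSMA2 transcript lies in exons of another gene on the same strand. The same share was 81.0% for PSMA6, 53.2% for PSMA1 and 45.3% for PSMB10. No source used here says how reads on shared exons were counted, which leaves the levels of these genes uncertain. The part of the overlap in them was not tested. The overlapping gene had a median of 0 counts a library at PSMA2 and at PSMA1, 3 at PSMA6 and 24 at PSMB10. PSMC1 shares 82.1% of its transcript with NRDE2 on the opposite strand, PSMD7 50.4% with AC009120.2 and PSMC5 27.2% with FTSJ3. Such shares were 15.9% for PSMD13 (SIRT3), 12.0% for PSME2 (RNF31), 8.64% for PSMD11 (AC005899.8) and 8.14% for PSMD14 (AC009299.3). PSMA2, PSME1 and PSME4 had at most 1.61%. The libraries keep strand, but no source used here names the setting under which strand was counted, and without it reads of such pairs cannot be told apart.

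**Figure D2:**
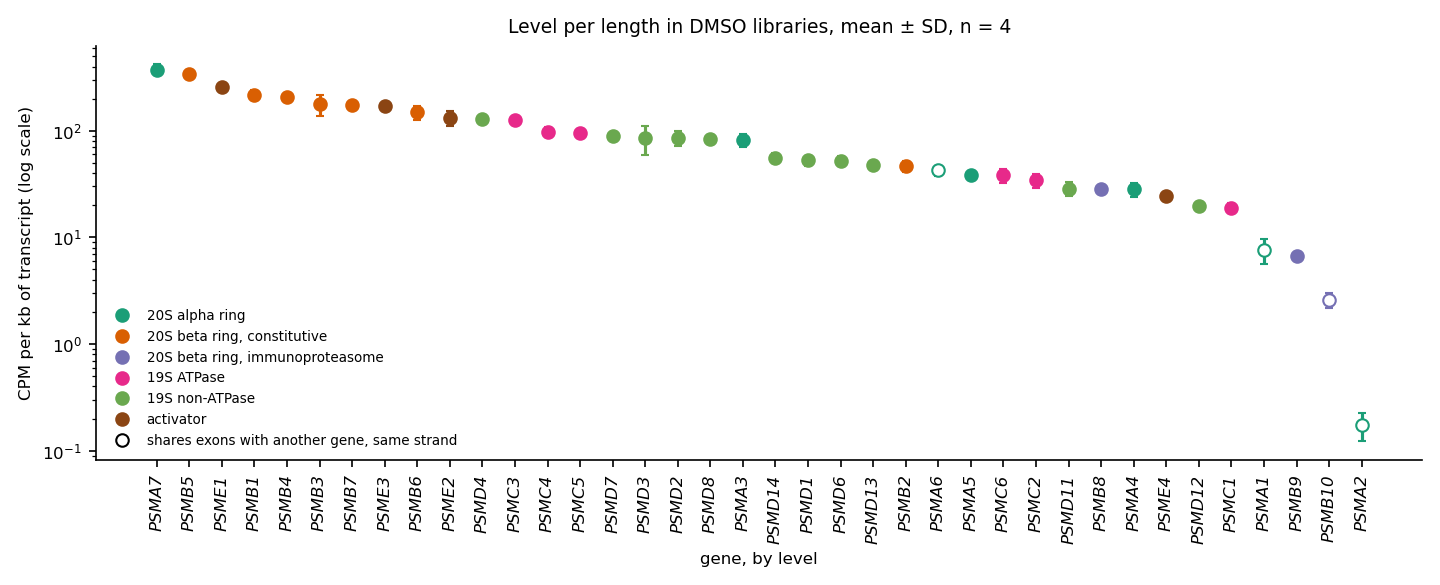
Mean level per kilobase of transcript in DMSO libraries (y axis, log scale, CPM per kb; bars: SD, n = 4) of the 38 genes in falling order (x axis), coloured by role. Open circles mark the genes that share exons with another gene on the same strand; PSMA1, PSMB9, PSMB10 and PSMA2 form the low end.

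The RefSeq promoter windows (GRCh38.p14) of the 7 called genes are printed, since these genes carry the calls in both directions. Each is the 250 bases before the annotated start, 5′ to 3′ on the gene's strand. They lie at chr2:161308175-161308424 for PSMD14 (plus strand), chr19:38374321-38374570 for PSMD8 (plus), chr6:32853942-32854191 for PSMB9 (plus), chr14:24146611-24146860 for PSME2 (minus), chr14:35292067-35292316 for PSMA6 (plus), chr7:103347393-103347642 for PSMC2 (plus) and chr16:67936851-67937100 for PSMB10 (minus). Capitals mark matches on either strand to CCAAT, to TGACNNNGC (the core of the antioxidant response element, which NFE2L1 can bind) or to the core of the interferon-stimulated response element, 2 GAAA units with any 2 bases between them.
PSMD14 promoter: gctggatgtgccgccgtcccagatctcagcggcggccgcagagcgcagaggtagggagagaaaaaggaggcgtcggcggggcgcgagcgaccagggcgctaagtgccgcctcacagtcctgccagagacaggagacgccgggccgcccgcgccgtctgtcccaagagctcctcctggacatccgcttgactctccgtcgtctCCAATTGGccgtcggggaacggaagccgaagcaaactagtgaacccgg
PSMD8 promoter: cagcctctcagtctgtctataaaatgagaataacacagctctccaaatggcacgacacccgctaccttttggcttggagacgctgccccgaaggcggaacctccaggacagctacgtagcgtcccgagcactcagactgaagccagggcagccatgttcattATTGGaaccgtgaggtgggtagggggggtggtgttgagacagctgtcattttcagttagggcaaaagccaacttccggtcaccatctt
PSMB9 promoter: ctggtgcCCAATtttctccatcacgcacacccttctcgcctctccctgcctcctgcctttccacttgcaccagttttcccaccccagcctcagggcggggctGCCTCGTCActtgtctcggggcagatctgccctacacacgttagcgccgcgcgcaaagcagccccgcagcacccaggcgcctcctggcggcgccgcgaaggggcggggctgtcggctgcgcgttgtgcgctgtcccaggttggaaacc
PSME2 promoter: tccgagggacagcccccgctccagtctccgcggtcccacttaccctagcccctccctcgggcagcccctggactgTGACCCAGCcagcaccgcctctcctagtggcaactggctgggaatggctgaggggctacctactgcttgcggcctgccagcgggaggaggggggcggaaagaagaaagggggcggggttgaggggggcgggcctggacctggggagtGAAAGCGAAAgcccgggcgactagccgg
PSMA6 promoter: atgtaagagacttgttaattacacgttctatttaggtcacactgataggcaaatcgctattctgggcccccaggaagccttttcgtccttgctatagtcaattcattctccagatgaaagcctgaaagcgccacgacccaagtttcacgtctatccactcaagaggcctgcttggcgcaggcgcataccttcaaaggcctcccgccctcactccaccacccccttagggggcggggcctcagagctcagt
PSMC2 promoter: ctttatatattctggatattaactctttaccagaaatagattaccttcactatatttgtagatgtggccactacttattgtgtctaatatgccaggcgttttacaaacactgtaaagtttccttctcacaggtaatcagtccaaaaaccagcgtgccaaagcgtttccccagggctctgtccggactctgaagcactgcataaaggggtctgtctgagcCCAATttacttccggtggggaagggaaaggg
PSMB10 promoter: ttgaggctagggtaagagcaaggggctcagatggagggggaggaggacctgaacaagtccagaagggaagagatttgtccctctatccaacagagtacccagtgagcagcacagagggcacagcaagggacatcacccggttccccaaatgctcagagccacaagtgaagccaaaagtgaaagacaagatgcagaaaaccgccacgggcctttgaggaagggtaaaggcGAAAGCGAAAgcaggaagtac

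PSMD14 reads CCAAT on both strands at -48 to -41, in overlapping matches, and PSMD8 reads it on the minus strand at -88 to -84. PSMC2 reads it on the plus strand at -31 to -27, and PSMA6 holds none of these motifs. PSMB9 holds TGACNNNGC on the minus strand at -148 to -140. PSME2 and PSMB10 share the same letters, GAAAGCGAAA, at -28 to -19 and at -21 to -12. The table held windows for 33 of the 38 genes; PSMA7, PSMB1, PSMB6, PSMB7 and PSMD4 are named only. TGACNNNGC was in the windows of 9 of the 33 (27.3%), against 15.9% of the promoters of all tested genes. CCAAT was in 16 of the 33 (48.5% against 40.8%). GAANNTTC, paired heat shock element units, was in 0 of the 33 (5.87% of tested genes). The interferon-stimulated core and TNGCGTG, the core bound by the aryl hydrocarbon receptor, were searched after the calls were seen. The interferon-stimulated core was in 4 of the 33 (PSMA4, PSMB4, PSMB10 and PSME2; 12.1% against 3.18%) and TNGCGTG in 1 (PSMD12; 3.03% against 7.61%). A match is a run of letters and not a measured binding site.

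The 19S lid held the genes that rose in BPA. PSMD14, the metalloprotease that cuts ubiquitin chains from substrates at the cap, had 156.0, 161.0, 139.9 and 137.0 CPM in BPA libraries, against 120.4, 115.8, 92.5 and 109.0 CPM in DMSO libraries. Every BPA library was above every DMSO library. The log2 fold change was 0.44 ± 0.10 (SE; edgeR adjusted p = 0.00202), and leaving out each library in turn kept it between 0.37 and 0.49. PSMD8, a lid subunit needed for the lid to join the base, had 164.8, 164.3, 154.2 and 172.4 CPM in BPA, against 134.2, 136.0, 125.9 and 121.8 CPM in DMSO. Again the groups did not overlap, and the log2 fold change was 0.34 ± 0.10 (edgeR adjusted p = 0.00911). That call was lost with upper-quartile scaling, with library-size scaling and with no filter on low counts, whereas PSMD14 stayed called under these alternatives.

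PSMD3, another lid subunit, had the largest BPA fold change of the 19S non-ATPase genes, 0.51 ± 0.25, but was not called (edgeR adjusted p = 0.109). It had 258.5, 250.5, 253.6 and 293.0 CPM in BPA, against 227.9, 132.6, 139.0 and 239.6 CPM in DMSO. The BPA libraries were all above the DMSO libraries, and the DMSO libraries split into 2 high and 2 low values. PFOS and water libraries ranged as widely, from 131.3 to 251.7 and from 120.5 to 245.7 CPM. With the replicate number as a block, PSMD3 was called in BPA (0.57, adjusted p = 0.00765), which made 3 genes higher and 3 lower, while calls over all genes numbered 8084 with the block and 6588 without it. PSMD7, the partner of PSMD14 in the lid, had BPA values all above those in DMSO, with a log2 fold change of 0.27 ± 0.12 (adjusted p = 0.0968).

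Of the 11 non-ATPase genes, 9 had a BPA fold change above 0, beside 48.3% of all genes. Their median was 0.15, beside -0.02 over all genes, and in 4 the groups did not overlap. Over all genes, 20.1% had every BPA library above every DMSO library. Among all 38, 5 had BPA wholly above and 3 wholly below DMSO, beside 17.1% of all genes wholly below. PSMD11, PSMD12, PSMD13, PSMD2 and PSMD4 had fold changes from 0.09 to 0.28 with no call, and PSMD6 and PSMD1 had -0.15 and -0.17.

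**Figure D3:**
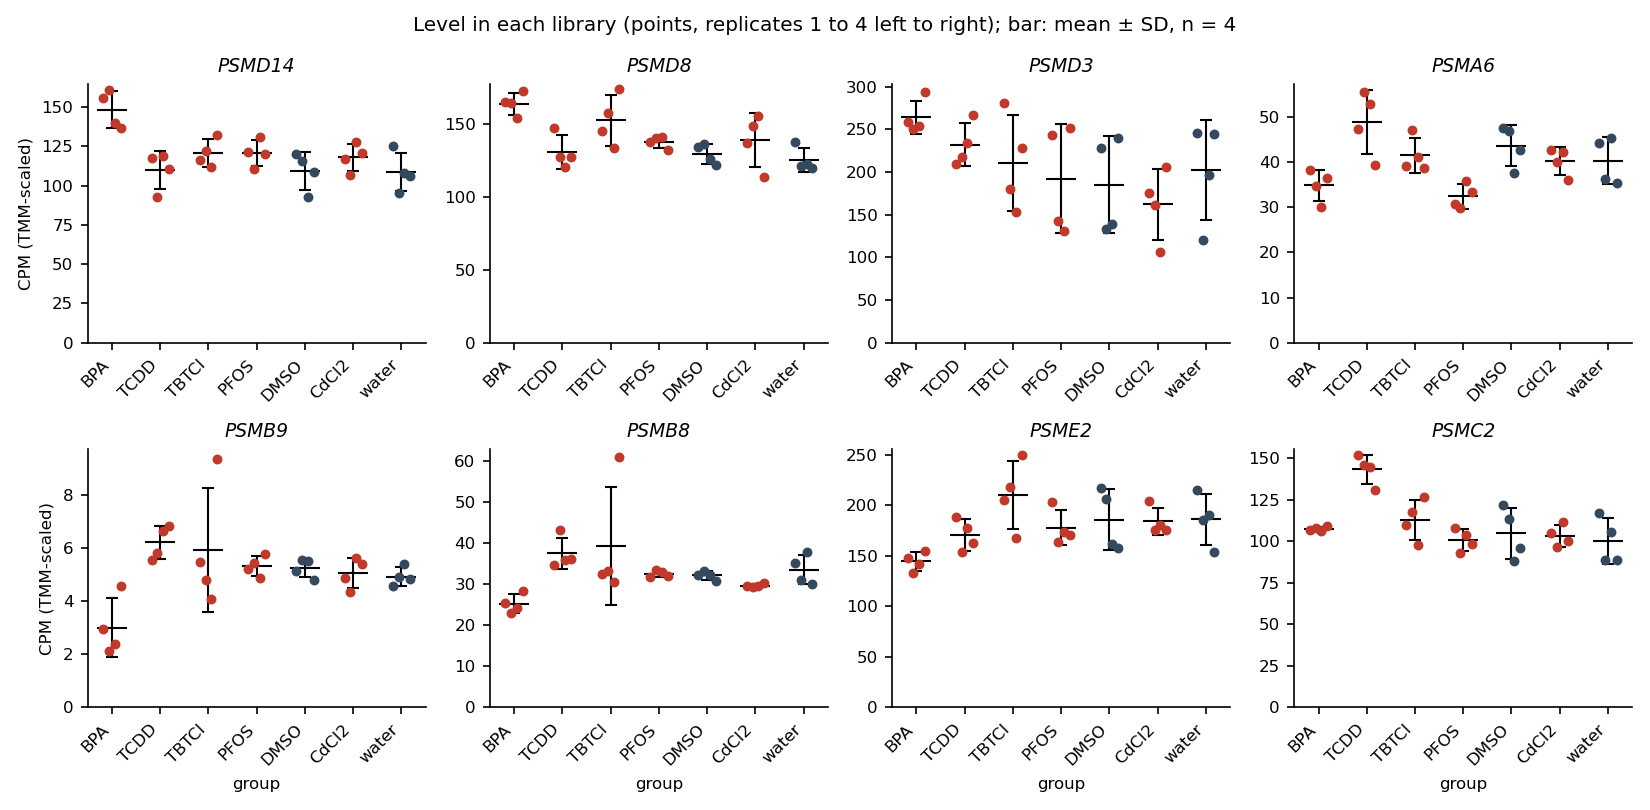
Level in each library (points; y axis, TMM-scaled CPM) of 8 genes in the 7 groups (x axis; red: exposed, dark: vehicle), with mean ± SD (n = 4). PSMD14 and PSMD8 lie higher in BPA than in DMSO and PSMB9 lower, PSMC2 stands out in TCDD, and PSMB8 has 1 high TBTCl library at 61.0 CPM.

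Of the 3 immunoproteasome genes, 1 was called in BPA, PSMB9, which fell, beside 35.0% of all genes called in either direction. PSMB9 replaces PSMB6 in the immunoproteasome and lies beside PSMB8 in the major histocompatibility region on chromosome 6. It had 2.95, 2.11, 2.38 and 4.58 CPM in BPA libraries, against 5.15, 5.55, 5.51 and 4.81 CPM in DMSO libraries. BPA replicate 4 was the highest of its group and close to the lowest DMSO library, and the groups did not overlap. The log2 fold change was -0.80 ± 0.21 (edgeR adjusted p = 0.00451), or 0.575 of the DMSO level. It ranged from -1.08 without BPA replicate 4 to -0.66 without BPA replicate 2, with adjusted p between 0.000255 and 0.0237. PSMB9 was also lower in BPA when set directly against TCDD (-1.04 ± 0.21, adjusted p = 0.000345), TBTCl (-0.97 ± 0.21, adjusted p = 0.000939) and PFOS (-0.82 ± 0.21, adjusted p = 0.00412).

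PSMB8, which replaces PSMB5, had 25.4, 22.9, 24.3 and 28.5 CPM in BPA, against 32.3, 33.3, 32.2 and 30.9 CPM in DMSO. The BPA libraries were all lower, but the log2 fold change of -0.35 ± 0.15 was not called (edgeR adjusted p = 0.0675). The highest PSMB8 value of any library, 61.0 CPM in TBTCl replicate 4, enters this comparison only through the shared estimate of the spread. Without that library the adjusted p of PSMB8 was 0.00189, PSME1 (-0.22, adjusted p = 0.0375) and PSMD7 (0.27, adjusted p = 0.0163) were called too, and the counts became 3 higher and 5 lower. Over all genes, calls numbered 7625 in that fit and 6588 with all 28 libraries. PSMB10, which replaces PSMB7, had 2.75, 3.01, 2.68 and 4.21 CPM in BPA, against 2.50, 3.71, 3.30 and 3.14 CPM in DMSO, a difference of -0.00 ± 0.18 with overlapping groups.

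The activator genes PSME1 and PSME2 encode the alternating chains of PA28. PSME2 had 148.4, 133.0, 142.0 and 155.1 CPM in BPA, against 216.9, 206.2, 161.8 and 158.2 CPM in DMSO. The groups did not overlap, with 2 of the DMSO libraries close to the BPA range, and the log2 fold change was -0.36 ± 0.13 (edgeR adjusted p = 0.0274). The call was lost without DMSO replicate 1 (adjusted p = 0.113), DMSO replicate 2 (0.0880), BPA replicate 2 (0.0816) or BPA replicate 3 (0.0588). PSME1 had 214.1, 193.8, 232.3 and 254.1 CPM in BPA, against 275.4, 265.5, 245.1 and 251.7 CPM in DMSO, with overlap (-0.21 ± 0.14, adjusted p = 0.255). PSME3 and PSME4, the nuclear activators, had fold changes of 0.21 ± 0.17 and 0.03 ± 0.15 and were not called.

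Ratios of each immunoproteasome subunit to the constitutive subunit it replaces were also compared, in 18 exact two-sided permutation tests over 4 against 4 libraries, whose smallest possible p is 0.0286. Counts were first divided by transcript length, and each percentage stands for the mean log2 ratio of a group. For PSMB10 that length includes the 45.3% shared with another gene, so its percentages are uncertain. PSMB9 was 2.05% of PSMB6 in BPA and 4.56% in DMSO, a log2 difference of -1.15 (exact permutation p = 0.0286, adjusted over the 18 tests 0.171). PSMB8 was 6.93% of PSMB5 in BPA and 8.37% in DMSO (-0.27, exact permutation p = 0.0286, adjusted 0.171). In both ratios all BPA libraries were below all DMSO libraries. The BPA ratio of PSMB10 to PSMB7 was 1.47%, against 1.49% in DMSO (exact permutation p = 0.886). After adjustment none of the 18 passed 0.05, and the smallest adjusted p was 0.171. A ratio at the smallest possible p could pass only if most of the 18 tests reached that p. The lack of a passing ratio therefore does not show that the ratios were unchanged.

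The core and the ATPases showed few calls in BPA. PSMA6, an alpha ring subunit, had 38.3, 34.7, 30.2 and 36.6 CPM in BPA, against 47.5, 46.9, 37.7 and 42.6 CPM in DMSO. The groups overlapped by 1 library each, and the log2 fold change was -0.32 ± 0.12 (edgeR adjusted p = 0.0328). Its adjusted p was 0.0926 without DMSO replicate 1, 0.0867 without DMSO replicate 2, 0.0650 without BPA replicate 2 and 0.120 without BPA replicate 3, so the call was lost there. Annotated PSMA6 pseudogenes held counts equal to 23.4% of those of PSMA6 itself, which with its shared exons makes this gene uncertain. The same share was 11.4% for PSMC1, 9.80% for PSMA2, 3.93% for PSME2 and at most 0.694% for the rest. PSMA1 had 15.5, 15.3, 15.8 and 14.0 CPM in BPA, against 13.0, 8.73, 9.18 and 15.1 CPM in DMSO (0.39 ± 0.32, adjusted p = 0.353).

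None of the 7 constitutive beta genes was called in BPA, beside 35.0% of all genes called in either direction. The median log2 fold change of the 7 was 0.01. The catalytic PSMB5 had 412.9, 392.4, 425.7 and 446.4 CPM in BPA, against 457.9, 480.6, 439.8 and 394.4 CPM in DMSO, with a 95% interval from -0.33 to 0.17. The interval of PSMB7, the subunit with trypsin-like activity, ran from -0.23 to 0.24. PSMB6, the subunit with caspase-like activity, had 154.6, 143.1, 150.2 and 163.1 CPM in BPA, against 147.9, 117.3, 104.8 and 135.8 CPM in DMSO (0.27 ± 0.20, adjusted p = 0.305). PSMB3, a structural subunit, had 164.8, 148.7, 147.0 and 172.1 CPM in BPA, against 169.6, 129.5, 98.1 and 148.6 CPM in DMSO (0.21 ± 0.23, adjusted p = 0.496). In both genes the groups overlapped.

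None of the 6 ATPase genes was called in BPA either, beside 35.0% of all genes called in either direction. Their fold changes ran from -0.20 (PSMC6) to 0.18 (PSMC4). PSMC4 had 181.1, 181.8, 156.1 and 188.6 CPM in BPA, against 165.8, 172.9, 142.9 and 142.5 CPM in DMSO. PSMC6 had 75.6, 69.99, 77.4 and 67.5 CPM in BPA, against 100.1, 84.4, 77.3 and 71.7 CPM in DMSO. Both pairs of groups overlapped, and the adjusted p was 0.295 for PSMC4 and 0.300 for PSMC6.

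In TCDD the genes that rose were PSMC2 and PSMB10. PSMC2, an ATPase of the 19S base, had 151.7, 146.0, 144.6 and 131.1 CPM in TCDD libraries, against 121.8, 113.3, 88.2 and 95.8 CPM in DMSO libraries. All TCDD libraries were higher, and also higher than every library of the other 5 groups, whose maximum was 126.6 CPM. The log2 fold change was 0.45 ± 0.11 (edgeR adjusted p = 0.00557), between 0.38 and 0.52 with each library left out, with adjusted p of at most 0.0346. With no filter on low counts the call was lost (adjusted p = 0.0726). In BPA, PSMC2 had 106.9, 107.9, 106.3 and 109.2 CPM, and the direct difference of BPA against TCDD was -0.41 ± 0.11 (adjusted p = 0.00347).

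PSMB10 had 4.75, 5.15, 4.47 and 4.53 CPM in TCDD, against 2.50, 3.71, 3.30 and 3.14 CPM in DMSO. The groups did not overlap, and the log2 fold change was 0.58 ± 0.18 (edgeR adjusted p = 0.0456), from 150 to 318 counts a library in TCDD and 82 to 233 in DMSO. The adjusted p lay between 0.0346 and 0.151 with each library left out: the call was lost without any 1 TCDD library and without DMSO replicate 1, 3 or 4. It was also lost with library-size scaling (adjusted p = 0.0526), with no filter on low counts (0.210), in a fit of TCDD and DMSO alone (0.0577) and against water in place of DMSO (0.0580). The ratio of PSMB10 to PSMB7 was 2.21% in TCDD and 1.49% in DMSO (exact permutation p = 0.0286, adjusted 0.171).

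All 3 immunoproteasome genes had every TCDD library above every DMSO library, as did 9.38% of all genes, but PSMB8 (0.22 ± 0.15, adjusted p = 0.427) and PSMB9 (0.24 ± 0.21, adjusted p = 0.558) were not called. Set directly against TCDD, BPA had 5 of the 38 genes higher and 6 lower, beside 17.8% and 20.4% of all genes. The 6 lower genes were PSMB8, PSMB9, PSMB10, PSME1, PSMC2 and PSMA6. The 5 higher were PSMD14, PSMD8, PSMD11, PSMC4 and PSME3. The comparisons of BPA and of TCDD with DMSO share the same DMSO libraries.

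TBTCl gave no call with edgeR or DESeq2, and its fold changes depended on 1 library. The median log2 fold change of the 38 genes was 0.22, beside 0.01 over all genes, and 34 of 38 were above 0, beside 51.4% of all genes. Of the 38, 13 had an unadjusted edgeR p under 0.05, all higher, beside 9.58% of all genes higher. TBTCl replicate 4 had a summed level of 8234 CPM over the 38 genes, against 5998, 5895 and 5127 CPM in the other 3 TBTCl libraries and 4818 to 6098 CPM in all other libraries. In it PSMA1 had 44.7 CPM, PSME1 528.8 CPM and PSMB1 514.4 CPM, while the other TBTCl libraries had at most 12.2, 292.3 and 236.7 CPM. Without it the median fell to 0.05, beside 0.002 over all genes, with 33 of 38 above 0 and 0 at an unadjusted p under 0.05. The TMM factor of this library was 0.861, and the part of its composition in these values was not tested.

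**Figure D4:**
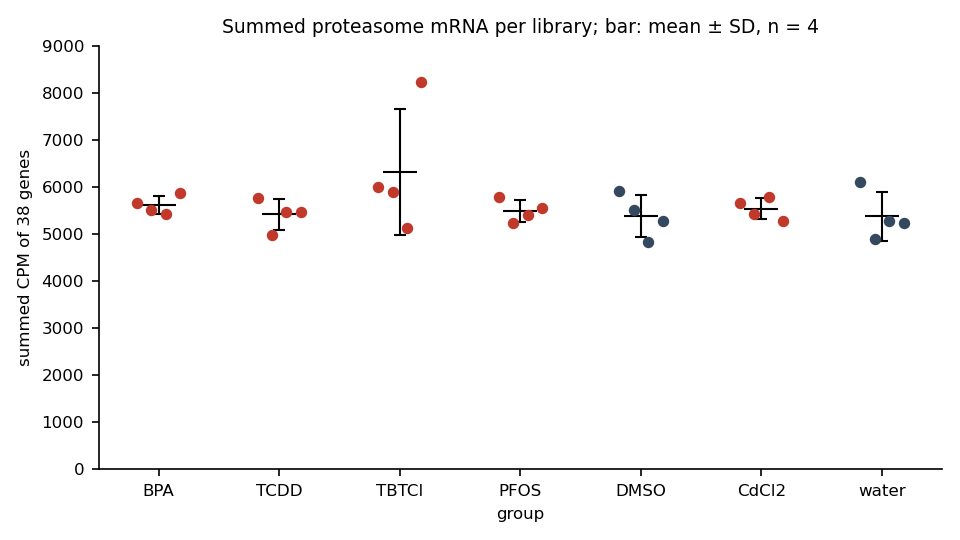
Summed CPM of the 38 genes in each library (points) of the 7 groups (x axis), with mean ± SD (n = 4). TBTCl replicate 4 stands alone at 8234 CPM, while all other libraries lie between 4818 and 6098 CPM.

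Set directly against TBTCl, BPA had 1 of the 38 genes higher and 9 lower, beside 16.7% and 18.1% of all genes. Without TBTCl replicate 4 these counts were 1 and 5, and calls over all genes numbered 5732, against 6564 with it. PSMB8, PSMB9, PSME1, PSME2 and PSMC6 were lower and PSMD14 higher in both fits. With the replicate block, the higher genes numbered 2.

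PFOS, CdCl2 and the DMSO vehicle left the 38 genes close to their controls. In PFOS, edgeR called none. PSMA6 alone reached an unadjusted p under 0.05, as did 5.53% of all genes, and it was the single call of DESeq2 (-0.43, adjusted p = 0.0473). It had 30.8, 29.8, 35.8 and 33.4 CPM in PFOS, against 47.5, 46.9, 37.7 and 42.6 CPM in DMSO, with no overlap and an edgeR adjusted p of 0.149. Over all genes, 3.79% had every PFOS library below every DMSO library. The 95% intervals of 35 of the 38 genes lay inside a 1.5-fold change in PFOS, against 49.2% of all genes. Set directly against PFOS, BPA had 1 gene higher (PSMD14) and 1 lower (PSMB9), beside 15.3% and 15.3% of all genes.

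In CdCl2 against water, neither edgeR nor DESeq2 made a call. At an unadjusted p under 0.05 stood 1 gene, PSMD6 (0.25 ± 0.11, edgeR adjusted p = 0.898), beside 4.99% of all genes, and 33 intervals lay inside 1.5-fold, against 44.6% of all genes. In DMSO against water, no member was called by DESeq2, and 0 of 38 passed an unadjusted p of 0.05, beside 2.29% of all genes. The difference between the BPA change and the CdCl2 change was called for PSMB9 alone (-0.84 ± 0.29, edgeR adjusted p = 0.04999), beside 8.70% of all genes higher and 7.81% lower. Leaving out single libraries moved that p between 0.00585 and 0.114, and the call was lost in 14 of the 17 such fits. With the replicate block PSMD3 (0.88, adjusted p = 0.00761) and PSMD6 (-0.39, adjusted p = 0.0483) were called as well, while calls over all genes numbered 4832 with the block and 3113 without it.

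Lists of genes that act around the proteasome held further BPA calls. Of 11 tested genes for other subunits and associated factors, 4 rose and none fell, beside 17.3% of all genes called higher and 17.6% lower: ZFAND2A (1.29 ± 0.13), ZFAND5 (0.77 ± 0.10), ECPAS (0.61 ± 0.12) and PSMF1 (0.49 ± 0.10), with edgeR adjusted p from 3.89e-08 to 0.000341. ZFAND2A and ZFAND5 are zinc-finger proteins that associate with the proteasome, ECPAS is an adaptor and scaffold of the 26S particle, and PSMF1 can inhibit the 20S core. ZFAND2A had 128.4, 146.9, 111.4 and 111.6 CPM in BPA, against 52.6, 52.9, 49.0 and 49.1 CPM in DMSO, far apart. It was also called in TBTCl (0.63 ± 0.13, adjusted p = 0.0347), but not without TBTCl replicate 4 (0.43, adjusted p = 0.124).

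Of 11 genes for ubiquitin, its activation and shuttle factors, 3 rose in BPA and none fell, beside the same 17.3% and 17.6% of all genes. SQSTM1, the autophagy receptor that also binds ubiquitin, had 1854, 2404, 1555 and 1244 CPM in BPA, against 376.5, 420.9, 343.3 and 289.6 CPM in DMSO (2.30 ± 0.22, edgeR adjusted p = 2.42e-08). RAD23B and UBQLN1, which carry ubiquitinated proteins to the proteasome, had log2 fold changes of 0.36 and 0.42. Of the 8 genes of the NFE2L1 route 1 was called, beside 35.0% of all genes called in either direction. It was NPLOC4, a cofactor of the VCP segregase, which rose (0.29 ± 0.11, edgeR adjusted p = 0.0331). NFE2L1 itself had 511.3, 532.3, 539.1 and 562.9 CPM in BPA, against 338.9, 359.8, 450.8 and 443.7 CPM in DMSO (0.43, adjusted p = 0.0750), and was called with the replicate block (0.44, adjusted p = 0.0107). The BPA libraries were all higher.

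None of the 9 assembly chaperone genes was called in BPA, beside 35.0% of all genes called in either direction. POMP, the maturation factor of the 20S core, averaged 62.9 ± 3.1 CPM in BPA and 63.8 ± 10.6 CPM in DMSO (SD, n = 4). None of the 14 genes of antigen presentation and interferon response and none of the 6 heat shock and BAG genes was called in BPA. The share over all genes is the same 35.0%. In TCDD, 2 of the 14 antigen presentation and interferon genes rose and none fell, beside 6.45% of all genes higher and 2.80% lower. They were IRF1, a transcription factor of the interferon response (0.76 ± 0.15, edgeR adjusted p = 0.000765), and B2M, the light chain of MHC class I (0.70 ± 0.15, adjusted p = 0.00235). IRF1 had 18.1, 17.6, 20.2 and 20.5 CPM in TCDD, against 12.0, 11.6, 11.6 and 10.1 CPM in DMSO, with no overlap. Over all genes, 9.38% had every TCDD library above every DMSO library.

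**Figure D5:**
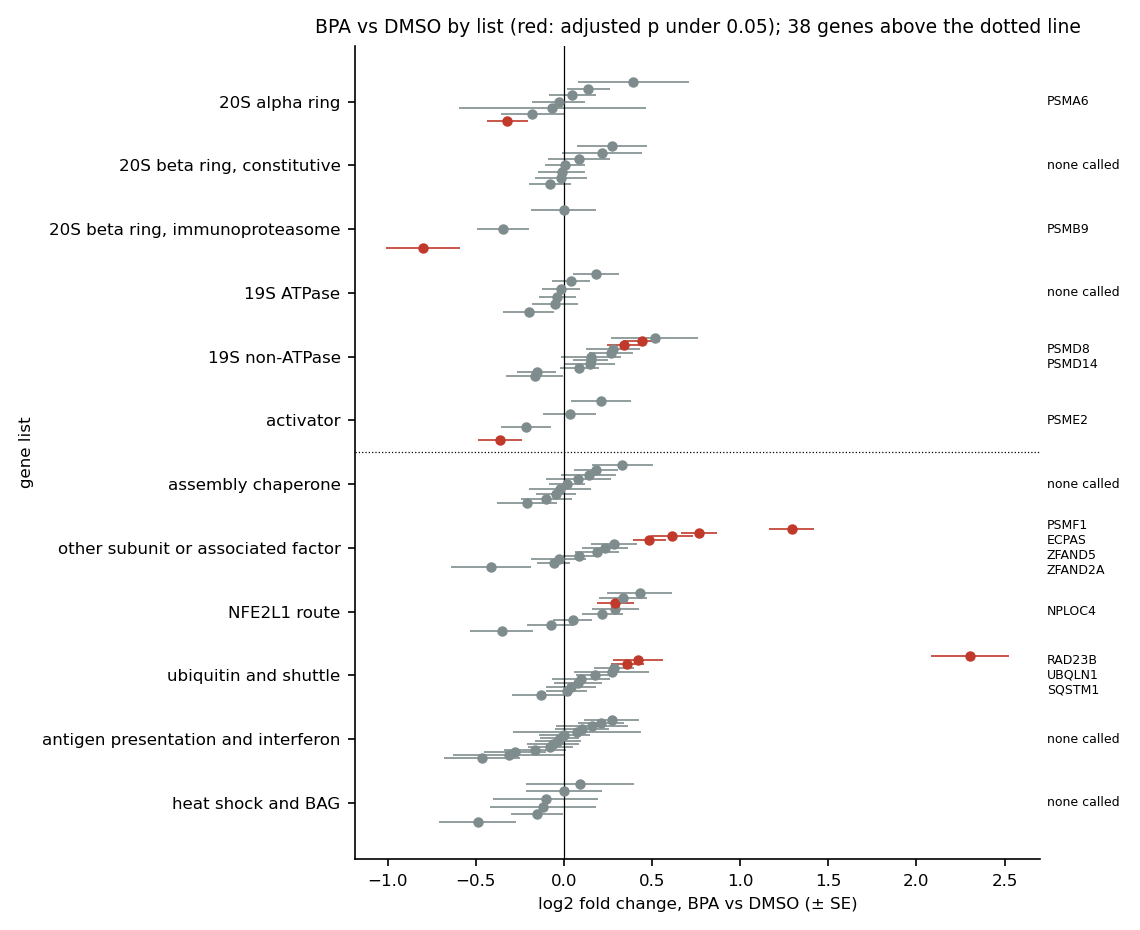
Log2 fold change ± SE in BPA against DMSO (x axis) of each gene of 6 role lists of the 38 genes (above the dotted line) and 6 lists of related genes (below), with called genes in red and named at the right. SQSTM1 lies at 2.30 and ZFAND2A at 1.29, outside the range of the 38 genes (-0.80 to 0.51).

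Within groups the 38 genes varied by different amounts. The median coefficient of variation over the 4 libraries was 6.24% in BPA, 10.1% in TCDD, 25.5% in TBTCl, 7.17% in PFOS and 10.4% in DMSO, and 8.94% in CdCl2 and 11.0% in water. PSMA2, at 3 to 28 counts a library, was the most variable gene in BPA, TCDD, PFOS, CdCl2 and water, PSMD3 in DMSO and PSMA1 in TBTCl. Together the 38 genes took 0.470 to 0.709% of the counts of a library.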

How the data were processed

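Poly(A) RNA of 28 HepG2 cultures was sequenced as directional pairs. The deposited values are whole-number gene counts. Per the submitters' processing notes, the authors used fastp, STAR, HTSeq and DESeq2, with the GRCh38 build. No source used here gives their versions, the annotation release or the strand setting. The incomplete last row of the table was dropped (63139 of 63140 kept).

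The members and lists were chosen with earlier results of these data known. Counts were scaled by TMM, filtered by filterByExpr (minimum count 10) and fitted with edgeR 4.0.16 (R 4.3.3) in quasi-likelihood models of all 28 libraries with 7 group means (21 residual degrees of freedom). P-values were adjusted by Benjamini-Hochberg over 18849 genes and called under 0.05. Intervals are t intervals on 21 degrees of freedom. The fit was tested on simulated data. Per-library values were named for the 2 members of each role list with the smallest BPA p, the immunoproteasome subunits, called members and the extremes of a list. Further members were named after their values were seen (PSMB5, PSMD7). The labels do not settle whether replicate numbers pair libraries across groups, so the main fit had no block. Same-numbered libraries deviated together in BPA, TBTCl and PFOS against DMSO, CdCl2 and DMSO against water and BPA against TBTCl (correlations 0.123 to 0.627). Not all did in TCDD against DMSO, BPA against TCDD and BPA against PFOS. Correlations between libraries with different numbers were not computed, so pairing was not settled. Alternatives were DESeq2 1.42.0, other scalings, no filter, the other vehicle, the compared groups alone, a replicate block and leaving out each library. Protein sequences were not used here, and 1 gene of the ubiquitin list is not reported here.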

Additional observations from a re-analysis of the deposited data

Results flagged for a closer look

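In each group of 4 libraries, the highest or lowest value was checked for 15 levels: those of single members and the members' summed CPM. The gap to the nearest other library, as a share of the group's range, had to exceed Dixon's 95% critical value. Of these, 9 of 105 groups passed, and chance gives about 1 in 20. TBTCl replicate 4 stood far above its group for PSMA1 (44.7 CPM, others 9.68 to 12.2), PSME1 (528.8 CPM, others 269.7 to 292.3) and PSMB8 (61.0 CPM, others 30.6 to 33.4). TCDD replicate 2 was high for PSMB8 (43.3 CPM, others 34.7 to 36.1). CdCl2 replicate 4 was low for PSMC4 (141.7 CPM, others 175.2 to 179.5) and slightly high for PSMB8 (30.3 CPM, others 29.4 to 29.5). CdCl2 replicate 1 was high for PSME2 (204.3 CPM, others 175.8 to 180.5). In water, replicate 1 was high for PSMD8 (138.0 CPM, others 120.0 to 122.5) and replicate 2 low for PSMA1 (9.16 CPM, others 12.9 to 13.5).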

How the results depend on the processing

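Besides the values above, these counts of called members moved by more than 1.5 times. With upper-quartile scaling, BPA against DMSO had 1 member higher, against TCDD 2 higher, against TBTCl 0 higher and 17 lower and against PFOS 0 higher and 3 lower, and 2 had a lower BPA than CdCl2 change. With library-size scaling, BPA against DMSO had 1 higher and 5 lower, TCDD against DMSO 1 higher, BPA against TCDD 1 higher, against TBTCl 0 higher and against PFOS 0 higher and 5 lower, and 2 had a lower BPA than CdCl2 change. Without a filter on low counts there was 1 higher and 1 lower in BPA, 0 higher in TCDD, 0 higher in BPA against TBTCl and PFOS, and 0 with a lower BPA than CdCl2 change. In fits of the compared groups alone, TCDD had 1 higher, BPA against TBTCl 0 higher and 3 lower, and BPA against PFOS 2 higher and 4 lower. Against water in place of DMSO, TCDD had 1 higher. DESeq2 gave 1 lower in PFOS, and 2 higher and 2 lower in BPA against PFOS.

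With the replicate block, BPA against TBTCl had 2 higher, and the BPA change was above the CdCl2 change in 1 member and below it in 2. For BPA against PFOS, where not all same-numbered libraries deviated together (correlations from -0.05 to 0.34), the block gave 3 higher and 3 lower. Nor did they all in TCDD against DMSO and BPA against TCDD (lowest correlations -0.21 and -0.24). There, and in the comparisons not named, the block kept the counts within 1.5 times. The PSMB10 log2 fold change in BPA was 0.0103 with the block and -0.17 to 0.077 with libraries left out, around a value of -0.00.

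With each library left out in turn, the higher and lower counts were 2 to 3 and 1 to 5 in BPA against DMSO, 1 to 2 and 0 in TCDD, 3 to 7 and 4 to 6 in BPA against TCDD, 0 to 1 and 5 to 13 in BPA against TBTCl, 0 to 2 and 1 to 4 in BPA against PFOS, and 0 to 1 and 0 to 1 for the BPA change minus the CdCl2 change. They stayed at 0 in TBTCl, PFOS, CdCl2 and DMSO against their vehicle. Log2 ratio differences that changed sign ran from -0.064 to 0.046 (PSMB8 to PSMB5, TBTCl), -0.12 to 0.077 (PSMB9 to PSMB6, PFOS), and, for PSMB10 to PSMB7, -0.16 to 0.0497 in BPA, -0.19 to 0.019 in TBTCl, -0.20 to 0.0014 in PFOS and -0.13 to 0.081 in DMSO against water. A pseudocount of 0.5 counts changed no ratio's side of the threshold. The fit without TBTCl replicate 4 was chosen after seeing the data. The causes of these shifts were not tested. Of the 38 genes PSMA2 had the fewest counts, 3 to 28 a library.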
